A study of Homo sapiens with 6 samples.

Results

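The genes of cholesterol synthesis, uptake and sterol control were followed in the 786-O cell line, derived from a human clear cell renal carcinoma, after targeting of PHF8, a histone demethylase. The 34 genes were chosen by symbol, as the enzymes from acetyl-CoA to cholesterol and the genes that control sterol supply, out of 54261 symbols in the count table. All 34 were found, and all 34 passed the filter on low counts. RNA-seq libraries came from PHF8 knockout cells, which received PHF8-sgRNA with CRISPR-Cas9 (3 libraries), and from PHF8 wild-type control cells, which received Ctrl-sgRNA in the same way (3 libraries). Both were grown in RPMI-1640 with 10% fetal bovine serum. The labels do not state whether either population was a clone or a pool, nor whether the libraries of a group were separate cultures, so the p-values reflect variation among these particular libraries, some or all of it possibly technical.

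Cells build cholesterol from acetyl-CoA by way of mevalonate, prenyl diphosphates, squalene and lanosterol. The transcription factor SREBP-2, encoded by SREBF2, drives the genes of the pathway. When sterols are plentiful, INSIG proteins hold SREBP and its escort SCAP in the endoplasmic reticulum, and when sterols are scarce SCAP carries SREBP to the Golgi, where the proteases encoded by MBTPS1 and MBTPS2 release its active part. Clear cell renal carcinoma is known for storing cholesterol esters and other neutral lipids in droplets.

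Library totals ran from 25632275 to 29095133 counted reads in knockout cells and from 21533615 to 25055762 in control cells. The PHF8 transcript stood at 10.8, 6.73 and 12.8 CPM (read counts scaled by library size and TMM factors) in knockout libraries 1, 2 and 3, against 36.5, 35.0 and 32.9 CPM in control libraries, a log2 fold change of -1.78 (SE 0.21; edgeR adjusted p = 1.18e-04). Of the markers of the line, PAX8, EPAS1, VIM, KRT8 and KRT18 were detected in every library, while CA9 and NDUFA4L2 averaged under 1 CPM in both groups. Of the 11 tested markers of the line, 3 rose and 2 fell, compared with 28.9% and 30.8% of all tested genes (adjusted p under 0.05). The rises were ANGPTL4 (log2 fold change 0.98), PAX8 (0.70) and KRT18 (0.33), and the falls MME (-2.38) and PAX2 (-1.08). With the length and GC offset described below, 3 markers rose and 4 fell, compared with 30.8% and 28.4% of all tested genes. KRT18 then passed as lower, at -0.24 (adjusted p = 0.0065). Of 18 markers of 6 other cell types, 5 had 0 reads in all libraries, among them PTPRC of leukocytes and CDH5 of endothelium. The summed fibroblast markers held 0.44 to 0.87 CPM in knockout and 2.87 to 3.40 CPM in control libraries, and the summed leukocyte markers, carried by CSF1R, 9.84 to 13.6 CPM in knockout and 8.37 to 9.60 CPM in control libraries. The sums for hepatocyte, endothelial, steroidogenic and adipocyte markers stayed under 1 CPM in every library. In bulk libraries fewer cells of a type and less RNA per cell cannot be told apart, and the part of such cells in the results was not tested.

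The upstream stretches of 6 genes are shown because they span the response: SREBF2 for the controlling factor, INSIG1, MVD, MSMO1 and NSDHL as examples of large rises, and LBR for the largest fall. They come from RefSeq (GRCh38.p14), 5′ to 3′, within 250 bases before the annotated start, and end where GENCODE places the first exon. Their positions are chr22:41832855-41833104 on the plus strand for SREBF2; chr7:155297628-155297775 on the plus strand for INSIG1; chr16:88663162-88663341 on the minus strand for MVD. The others are chr4:165327419-165327666 on the plus strand for MSMO1; chrX:152830813-152830966 on the plus strand for NSDHL; chr1:225428926-225429071 on the minus strand for LBR. Capitals mark TCACNCCAC, the sterol regulatory element to which SREBP binds, and CCAAT, the box bound by NF-Y, on either strand. In NSDHL a pair of CCAAT boxes on opposite strands overlap.
SREBF2: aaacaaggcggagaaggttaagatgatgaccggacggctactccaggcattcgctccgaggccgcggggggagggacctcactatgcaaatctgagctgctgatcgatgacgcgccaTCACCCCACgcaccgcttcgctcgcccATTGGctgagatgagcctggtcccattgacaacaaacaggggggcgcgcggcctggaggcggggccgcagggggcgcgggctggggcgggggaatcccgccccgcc
INSIG1: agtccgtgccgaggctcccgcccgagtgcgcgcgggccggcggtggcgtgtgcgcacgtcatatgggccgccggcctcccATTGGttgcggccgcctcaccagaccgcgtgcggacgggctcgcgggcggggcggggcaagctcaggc
MVD: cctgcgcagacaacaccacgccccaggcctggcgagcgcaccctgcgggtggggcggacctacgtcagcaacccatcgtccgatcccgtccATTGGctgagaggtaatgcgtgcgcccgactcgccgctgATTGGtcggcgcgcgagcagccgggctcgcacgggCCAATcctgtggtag
MSMO1: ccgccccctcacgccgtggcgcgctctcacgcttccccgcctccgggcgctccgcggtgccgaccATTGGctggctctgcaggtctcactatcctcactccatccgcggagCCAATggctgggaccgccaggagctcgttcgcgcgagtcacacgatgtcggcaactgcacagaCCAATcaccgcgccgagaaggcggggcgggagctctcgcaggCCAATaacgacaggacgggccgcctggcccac
NSDHL: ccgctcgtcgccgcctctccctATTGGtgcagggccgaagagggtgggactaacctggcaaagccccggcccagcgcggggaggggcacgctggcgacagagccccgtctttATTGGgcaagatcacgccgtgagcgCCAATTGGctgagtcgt
LBR: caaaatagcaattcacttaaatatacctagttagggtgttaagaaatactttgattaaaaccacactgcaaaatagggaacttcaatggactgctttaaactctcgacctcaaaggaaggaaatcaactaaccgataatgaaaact

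A promoter was listed for 31 of the 34 genes. Only SREBF2 held the letters TCACNCCAC within 250 bases upstream on either strand (1 of 31 genes, 3.23%), compared with 1.16% of the 9999 tested genes with a listed promoter. CCAAT was present for 22 of the 31 genes (71.0%), compared with 41.4% of tested genes. Among the 31 it stood upstream of 15 of 19 genes that rose, 6 of 9 that missed the test threshold and 1 of 3 that fell. GGGCGG, the GC box bound by SP1, was present for 27 of the 31 (87.1%), compared with 74.3% of tested genes. For genes with several listed starts, a match in any of them was counted. These matches are a description of letters and do not show binding, and a missing match says only that the letters are not in this window.

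Most transcripts of the synthesis pathway were higher in knockout cells. Of the 34 genes, 22 rose and 3 fell, and the other 9 missed the threshold (adjusted p of 0.05), while 28.9% of all 14398 tested genes rose and 30.8% fell. The 22 rises range over the mevalonate arm, squalene, the sterol nucleus, SREBF2, INSIG1, lysosomal cholesterol release and the oxysterol receptors. The falls were those of LBR, MBTPS2 and SOAT1. With the series' own 2-fold criterion added, 16 rose and 1 fell, against 9.20% and 14.2% of all tested genes. The median log2 fold change was 0.85 over the 34 genes and -0.01 over all tested genes. Knockout libraries lay entirely above control libraries for 22 genes and entirely below for 3, compared with 32.6% and 34.2% of all tested genes.

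**Figure D1:**
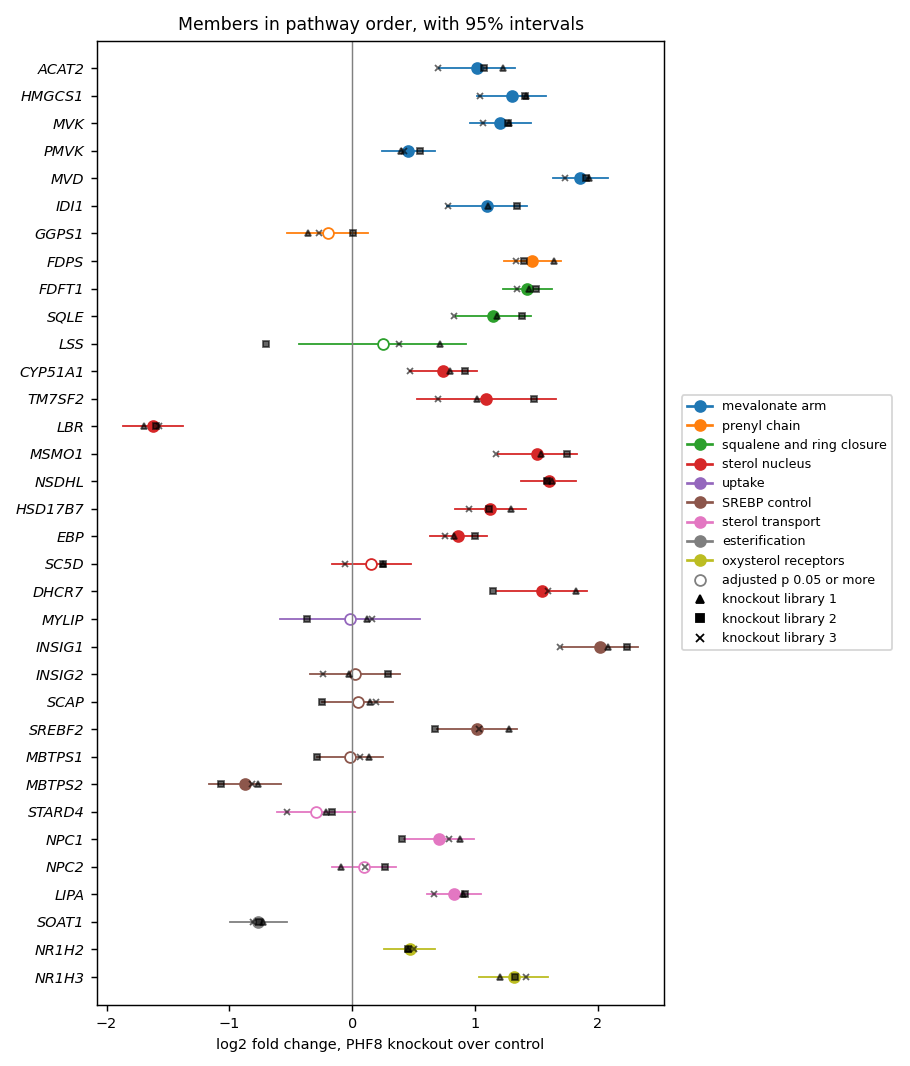
Log2 fold change of PHF8 knockout over control for the 34 genes in pathway order, from edgeR, with 95% intervals. Colours give the role, open circles did not pass an adjusted p of 0.05, and small marks give each knockout library over the control mean. INSIG1 lies farthest right at 2.02 and LBR farthest left at -1.62.

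The 20 synthesis enzymes together took 3391, 3316 and 2798 CPM in knockout libraries 1, 2 and 3, against 1463, 1493 and 1457 CPM in control libraries. The sum was 2.15-fold higher in knockout cells, and its control values stayed within a narrow band while knockout library 3 lay below the other 2 knockout libraries. Of these enzymes 16 rose, LBR fell and the other 3 missed the threshold, and their median was 1.11 (log2 fold change). All 34 genes made up 0.50%, 0.49% and 0.42% of the counted reads of knockout libraries 1, 2 and 3, and 0.27% of each control library.

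In the mevalonate arm all 6 enzymes rose. MVD (chr16:88651935-88663161, GRCh38), the decarboxylase that ends this arm, had 208, 204 and 181 CPM in knockout libraries, against 58.3, 53.6 and 51.9 CPM in control libraries. The groups were far apart, with a log2 fold change of 1.86 (SE 0.10; adjusted p = 4.79e-06), the largest of the 20 synthesis enzymes without the length and GC offset described below. With it 5 others lay higher, led by HMGCS1. HMGCS1, the cytosolic synthase that makes HMG-CoA, had 298, 296 and 229 CPM in knockout libraries, against 102, 119 and 113 CPM in control libraries (log2 fold change 1.30, SE 0.12; adjusted p = 4.95e-05). Knockout library 3 was the lowest of its group here as well. MVK, the first kinase acting on mevalonate, reached 43.1 ± 3.45 CPM in knockout and 18.7 ± 0.79 CPM in control cells (SD, n = 3 each, 2.31-fold). IDI1, which isomerizes the isoprene unit, had 168, 198 and 134 CPM in knockout libraries, against 70.9, 84.8 and 78.2 CPM in control libraries (2.14-fold). PMVK, the second kinase, rose least, 1.37-fold (adjusted p = 0.0030), with 58.4 ± 3.43 CPM in knockout and 42.6 ± 1.18 CPM in control cells (SD, n = 3 each). Its small rise turned into a fall of 0.17 (log2) once transcript length and GC content were allowed for, as described below.

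ACAT2, the cytosolic thiolase at the entry of the pathway, had 303, 272 and 209 CPM in knockout libraries, against 139, 127 and 122 CPM in control libraries (2.02-fold, adjusted p = 2.69e-04). Its transcript overlaps exons of TCP1 over 454 bases and of SOD2 over 98 bases on the opposite strand, and the strand setting of the counting is not given in the sources used here. TCP1 had a log2 fold change of 0.02 and SOD2 one of 1.57 (adjusted p = 2.37e-05), and the part of such overlap in the rise of ACAT2 was not tested. Opposite-strand exons overlap 8 of the 34 genes in all, among them HMGCS1 over 2497 bases of an unnamed long noncoding RNA, FDPS over 587 bases of RUSC1-AS1 (9 to 22 reads per library), NPC1 over 198 bases and SREBF2 over 254.

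At the prenyl branch point FDPS rose and GGPS1 did not pass the test. FDPS, which makes farnesyl diphosphate for both sterols and prenylated proteins, had 515, 435 and 416 CPM in knockout libraries, against 170.3, 163 and 162 CPM in control libraries (log2 fold change 1.47, SE 0.10; adjusted p = 1.43e-05). GGPS1, which extends that product to geranylgeranyl diphosphate and leads away from sterols, had 16.2, 20.9 and 17.3 CPM in knockout libraries, against 17.8, 22.3 and 22.3 CPM in control libraries. The GGPS1 groups overlapped, and its log2 fold change of -0.20 did not pass the test (95% interval -0.53 to 0.13; adjusted p = 0.26).

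FDFT1 and SQLE, which make squalene and its epoxide, rose. FDFT1 had 273, 283 and 255 CPM in knockout libraries, against 104, 101 and 97.8 CPM in control libraries (log2 fold change 1.43, SE 0.09; adjusted p = 8.27e-06). SQLE had 447, 513 and 349 CPM in knockout libraries, against 191, 199 and 202 CPM in control libraries (2.21-fold; adjusted p = 1.28e-04). Both groups were separate for both genes, with SQLE the more uneven among knockout libraries. LSS (chr21:46188141-46228824), which closes the squalene epoxide into lanosterol, did not pass the test, at 27.0, 10.1 and 21.4 CPM in knockout libraries, against 18.6, 17.0 and 13.7 CPM in control libraries. Knockout library 2 lay below every control library while the other 2 lay above every one. The log2 fold change of LSS was 0.25 (95% interval -0.43 to 0.93; adjusted p = 0.50) with all libraries. It was 0.56 (adjusted p = 0.0098) without knockout library 2 and -0.05 (adjusted p = 0.88) without knockout library 1. LSS was called in 1 of the 17 alternative fits.

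Of 9 enzymes that trim lanosterol to cholesterol, 7 rose, LBR fell and SC5D did not pass the test. NSDHL (chrX:152830967-152869729), a dehydrogenase that removes sterol methyl groups, was the most even of them among knockout libraries, with 99.5, 96.5 and 96.7 CPM in knockout libraries, against 35.2, 30.9 and 30.7 CPM in control libraries (log2 fold change 1.60, SE 0.10; adjusted p = 8.27e-06). MSMO1, the oxygenase that acts just before it, had 169, 195 and 131 CPM in knockout libraries, against 57.0, 59.5 and 57.8 CPM in control libraries (2.84-fold). DHCR7, the reductase that yields cholesterol, had 316, 198 and 269 CPM in knockout libraries, against 95.3, 91.8 and 81.2 CPM in control libraries (2.92-fold; adjusted p = 7.33e-05). All 3 were separated between the groups, and for DHCR7 it was knockout library 2 that lay lowest. The lanosterol demethylase gene CYP51A1 rose 1.67-fold and the sterol isomerase gene EBP 1.82-fold, to 191 ± 29.2 CPM against 114 ± 3.92 CPM for CYP51A1 and 149.8 ± 13.0 CPM against 82.3 ± 6.01 CPM for EBP, knockout against control cells (SD, n = 3 each). Both share exon bases on their own strand with other protein-coding loci of the annotation, CYP51A1 up to 2844 and EBP 642, and so does GGPS1 with 757, which leaves the assignment of their reads uncertain. HSD17B7, a keto-sterol reductase, rose 2.18-fold, with 30.1 ± 3.63 CPM in knockout and 13.8 ± 0.82 CPM in control cells (SD, n = 3 each). Reads of its pseudogene HSD17B7P2, 84, 119 and 84 in knockout and 30, 43 and 46 in control libraries, make the split between these copies uncertain. SC5D, the desaturase before DHCR7, had 32.5 ± 3.92 CPM in knockout and 29.2 ± 4.07 CPM in control cells (SD, n = 3 each; adjusted p = 0.37), but passed as higher with the offset, at 1.14.

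LBR and TM7SF2, which encode reductases of the same sterol step, changed in opposite directions. LBR also anchors chromatin and lamin B at the inner nuclear membrane. It lies at chr1:225401502-225428925. It had 35.8, 38.3 and 39.0 CPM in knockout libraries, against 102, 120.2 and 125 CPM in control libraries, a log2 fold change of -1.62 (SE 0.11; adjusted p = 1.17e-05). TM7SF2 had 2.75, 3.79 and 2.20 CPM in knockout libraries, against 1.18, 1.40 and 1.49 CPM in control libraries (log2 fold change 1.09, SE 0.25; adjusted p = 0.0047), a call it lost with the length and GC offset described below. Within a library there were 13.0, 10.1 and 17.7 LBR reads for each TM7SF2 read in knockout cells, and 86.3, 85.8 and 84.0 in control cells. The ratios did not overlap (exact two-sided permutation test, p = 0.10, adjusted p = 0.10 over the 3 gene pairs compared, the smallest that 3 against 3 libraries allow). LBR still held most of the reads of this step in every knockout library.

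**Figure D2:**
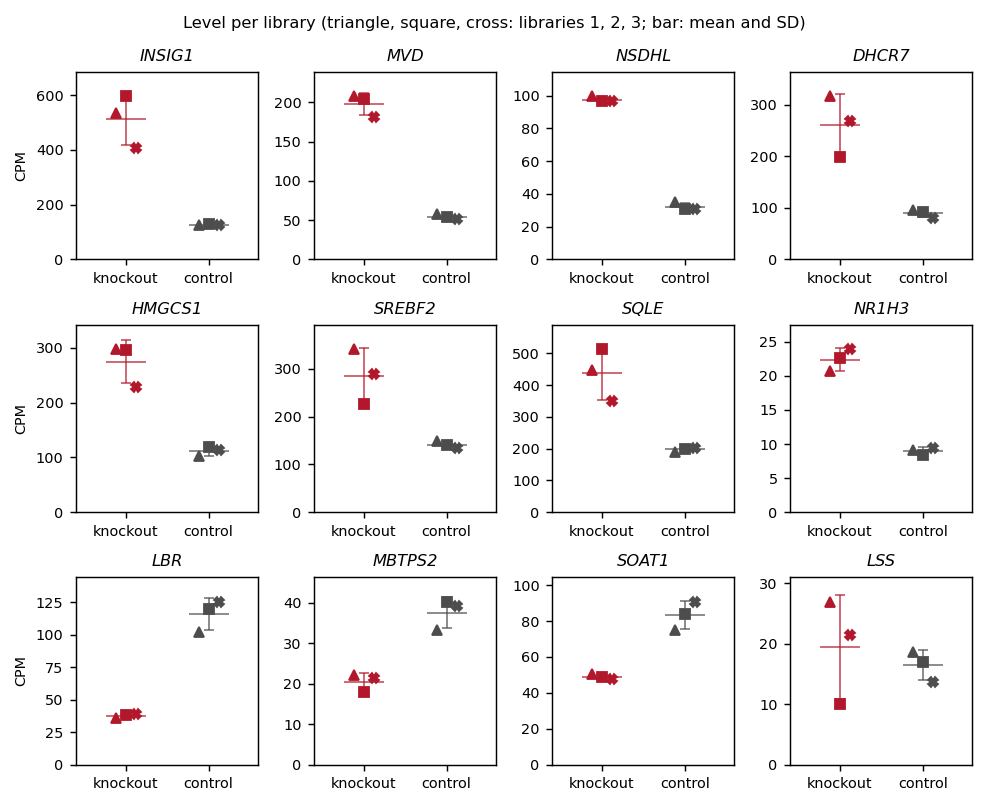
Level in CPM of 12 of the genes in each library, knockout at the left and control at the right, with the mean and SD of 3 libraries (triangle, square and cross for libraries 1, 2 and 3). The groups are apart in 11 panels, and in LSS knockout library 2 (10.1 CPM) lies below all control libraries.

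Among the genes that sense sterols, INSIG1 rose and INSIG2 did not pass the test. INSIG1 (chr7:155297776-155310235) is itself a target of SREBP and so a feedback gene. It had 536, 595 and 408 CPM in knockout libraries, against 124, 129 and 127 CPM in control libraries (log2 fold change 2.02, SE 0.14; adjusted p = 1.21e-05). That was the largest fold change of the 34 genes, and the control libraries were almost equal. INSIG2, which encodes a second protein with the same retention role, had 21.8, 27.2 and 18.9 CPM in knockout libraries, against 19.0, 24.6 and 23.2 CPM in control libraries (log2 fold change 0.02, 95% interval -0.34 to 0.39). It passed as higher with the offset, at 0.64 (adjusted p = 7.85e-04). There were 24.5, 21.9 and 21.6 INSIG1 reads per INSIG2 read in knockout libraries, against 6.54, 5.24 and 5.46 in control libraries (exact two-sided permutation test, p = 0.10, adjusted p = 0.10 over 3 pairs, the smallest possible).

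SREBF2 (chr22:41833105-41907306) had 342, 226 and 289 CPM in knockout libraries, against 149, 140.4 and 135 CPM in control libraries (log2 fold change 1.01, SE 0.14; adjusted p = 3.30e-04). Every knockout library was above every control library, with library 2 the nearest to them. This is the gene with the sterol regulatory element printed above. Of the genes for its processing, MBTPS2 fell and the other two did not pass the test. SCAP, the escort, had 91.5, 69.9 and 94.9 CPM in knockout libraries, against 87.3, 84.4 and 77.2 CPM in control libraries (log2 fold change 0.04, 95% interval -0.25 to 0.33). MBTPS1, the first protease, had 145, 108 and 137 CPM in knockout libraries, against 136, 132 and 128 CPM in control libraries (log2 fold change -0.02, 95% interval -0.29 to 0.25). Both SCAP and MBTPS1 had overlapping groups. MBTPS2 (chrX:21839617-21885423), the second protease, fell, with 22.1, 17.9 and 21.4 CPM in knockout libraries, against 33.1, 40.2 and 39.2 CPM in control libraries (log2 fold change -0.88, SE 0.13; adjusted p = 4.18e-04). With the offset its log2 fold change was -0.26 (adjusted p = 0.047), and with offset and replicate block -0.27 (adjusted p = 0.064).

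Uptake was represented by MYLIP, a ubiquitin ligase that sends lipoprotein receptors to degradation and is induced by oxysterol receptors. It was scarce, at 61, 45 and 71 reads in knockout libraries, against 39, 59 and 79 reads in control libraries, and its log2 fold change of -0.02 had a wide 95% interval, -0.59 to 0.55. A change of up to about that size was not detectable at this depth.

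Lipoprotein cholesterol is freed in lysosomes by the acid lipase LIPA and leaves them through NPC2 and NPC1. LIPA had 245, 248 and 208 CPM in knockout libraries, against 131, 132 and 131 CPM in control libraries (1.78-fold; adjusted p = 1.25e-04). NPC1, the membrane exporter, had 251, 180.3 and 235 CPM in knockout libraries, against 142, 136 and 132 CPM in control libraries (1.63-fold; adjusted p = 0.0012). Both were higher in every knockout library. NPC2, the soluble carrier, had 112 ± 13.9 CPM in knockout and 105 ± 8.10 CPM in control cells (SD, n = 3 each; adjusted p = 0.48). STARD4, a cytosolic sterol carrier known as an SREBP target, had 23.1, 24.0 and 18.5 CPM in knockout libraries, against 23.5, 28.7 and 28.3 CPM in control libraries. Its log2 fold change of -0.30 did not pass the test (adjusted p = 0.095), although it did when knockout library 2 was left out (-0.37, adjusted p = 0.038). Scaling by library totals alone also gave a call, at -0.46 (adjusted p = 0.019). In the opposite direction, STARD4 passed as higher with the length and GC offset, at 0.50 (adjusted p = 0.0056), and with offset and replicate block, at 0.49 (adjusted p = 0.0034).

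SOAT1 (chr1:179293714-179358680), the acyltransferase that esterifies cholesterol for storage in droplets, had 50.3, 49.1 and 47.6 CPM in knockout libraries, against 75.1, 84.0 and 90.8 CPM in control libraries (log2 fold change -0.77, SE 0.10; adjusted p = 2.61e-04). The knockout values were nearly equal, and all lay below the control values. This fall was lost when transcript length and GC content were allowed for.

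The oxysterol receptors, which switch on genes of cholesterol efflux, were both higher without the length and GC offset. NR1H3, which encodes LXR alpha, had 20.7, 22.6 and 23.9 CPM in knockout libraries, against 9.12, 8.40 and 9.48 CPM in control libraries (2.49-fold; adjusted p = 4.80e-05). NR1H2, which encodes LXR beta, had 65.7, 65.8 and 67.9 CPM in knockout libraries, against 50.2, 45.9 and 48.1 CPM in control libraries (1.38-fold; adjusted p = 0.0021). With the offset NR1H2 lay at -0.0036 on the log2 scale (adjusted p = 0.97). NR1H2 reads outnumbered NR1H3 reads 3.18, 2.91 and 2.84 to 1 in knockout libraries, against 5.51, 5.46 and 5.07 to 1 in control libraries (exact two-sided permutation test, p = 0.10, adjusted p = 0.10, the smallest possible).

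The read ratios within gene pairs given above are not corrected for transcript length or GC content. With the offset described below, LBR lay at -1.02 and TM7SF2 at 0.48 (log2 fold change), closer together than without it. INSIG1, at 2.14, and INSIG2, at 0.64, also lay closer together. Apart from the read ratios, levels were compared between genes per length, as mean CPM per kilobase of the canonical transcript. In knockout cells FDPS stood highest at 321, followed by INSIG1 at 177 and ACAT2 at 172. The last 2 differed by less than their spread between libraries. In control cells NPC2 at 127 and FDPS at 116 stood highest, and INSIG1 at 43.6 was the eighth. MYLIP and TM7SF2 were the lowest in both groups, at 0.76 and 1.85 in knockout cells and 0.76 and 0.86 in control cells, next to LSS at 3.99 in knockout and 3.36 in control cells.

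**Figure D3:**
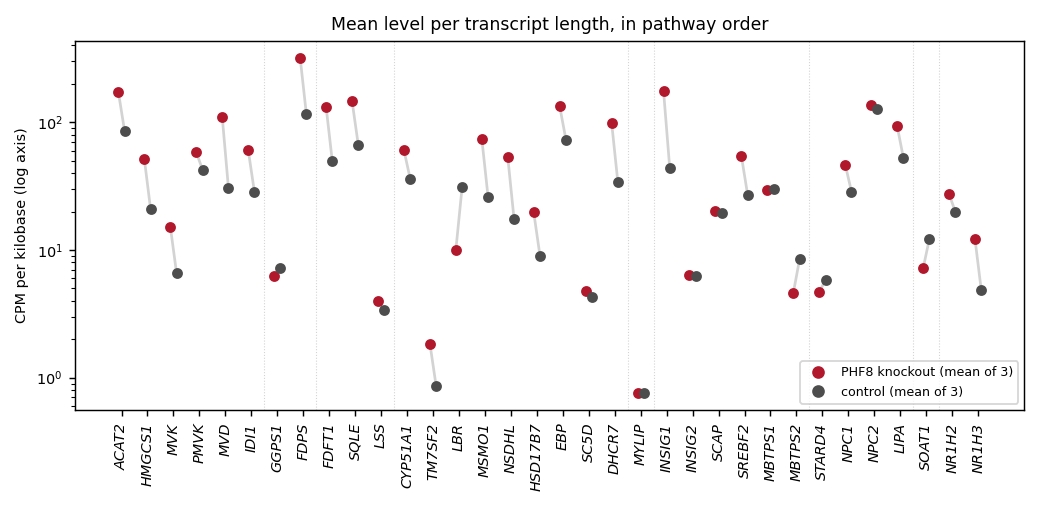
Mean level in CPM per kilobase of canonical transcript on a log axis, for PHF8 knockout (red) and control (grey) cells, in pathway order with dotted lines between roles. FDPS stands highest in knockout cells at 321 and MYLIP lowest at 0.76.

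Fold changes of all genes ran with transcript length and GC content, so each gene was also fitted with an offset that removes both trends. In 4 bins of like size over all tested genes, the median log2 fold change was 0.33 for the shortest transcripts and -0.59 for the longest, and -0.63 for the lowest GC content and 0.43 for the highest. Over all tested genes the median was 0.02 with the offset. With it, 22 of the 34 genes rose and 5 fell, against 30.8% and 28.4% of all tested genes, and the median was 0.82. Of the 22 genes that rose without the offset, 19 also rose with it. HMGCS1, with a transcript of 5350 bases and low GC content, moved to 2.05 (adjusted p = 2.23e-06) and MSMO1 to 1.86, while MVD, at 65.5% GC, moved to 1.23 and EBP to 0.32. INSIG1, at 2.14, and SREBF2, at 0.96, lay close to their values without it.

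Several genes changed their call with the offset. SC5D reached 1.14 (adjusted p = 5.01e-05), INSIG2 0.64 (adjusted p = 7.85e-04) and STARD4 0.50 (adjusted p = 0.0056), with transcripts of 34.4% to 36.9% GC. SOAT1, at 39.5% GC, lay at 0.12 (adjusted p = 0.22). TM7SF2 no longer passed, at 0.48 (adjusted p = 0.13), nor did NR1H2, at -0.0036 (adjusted p = 0.97). PMVK, SCAP and NPC2 passed as lower, at -0.17, -0.16 and -0.20, with adjusted p from 0.035 to 0.048. LBR remained lower at -1.02 and MBTPS2 at -0.26 (adjusted p = 0.047). A real difference between the groups that runs along either property would be taken away by this offset too, and its source was not tested.

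**Figure D4:**
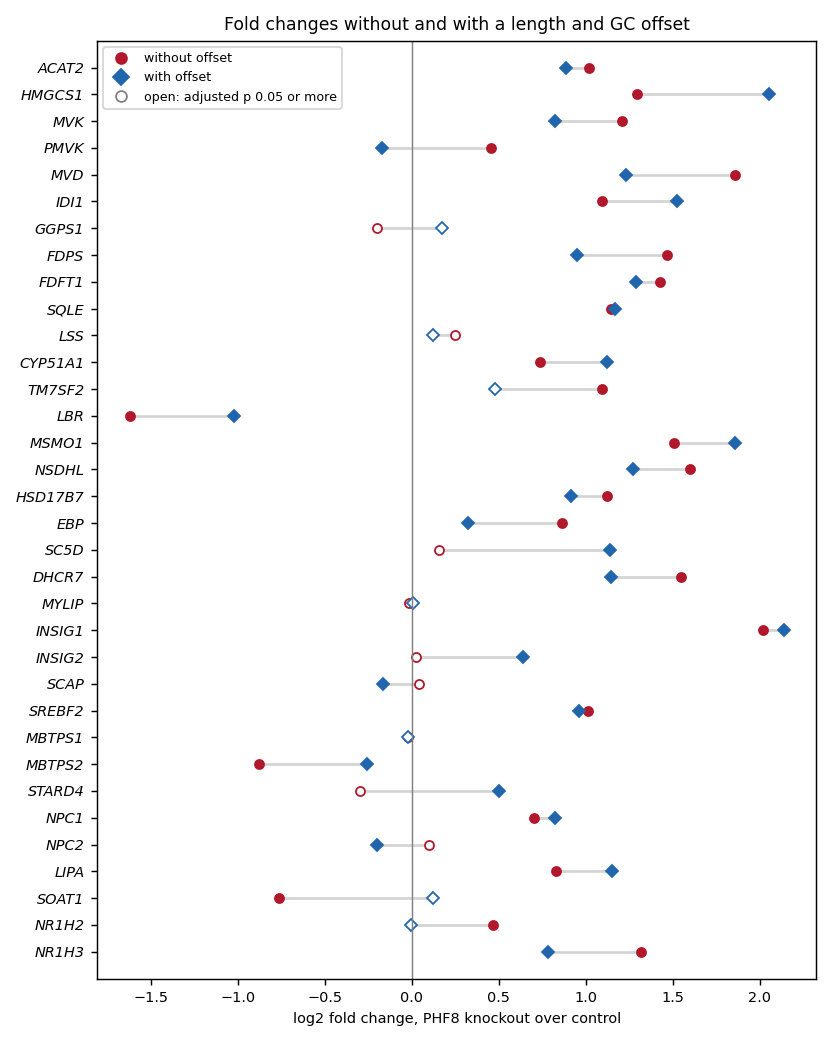
Log2 fold change of PHF8 knockout over control without the offset (red circles) and with it (blue diamonds), for each gene. Open marks did not pass an adjusted p of 0.05. SC5D lies at 0.15 without the offset and 1.14 with it, SOAT1 at -0.77 and 0.12, and INSIG1 at 2.02 and 2.14.

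The 34 genes were more uneven among knockout than among control libraries. The median coefficient of variation was 13.5% in knockout and 6.73% in control libraries. It was larger in knockout libraries for 28 of the genes, a count not made over all tested genes. The trait was not particular to these genes. The edgeR estimate of variation over all tested genes, a different measure, was 17.3% in knockout and 10.2% in control libraries. Knockout library 3 was the lowest of its group for 14 of the 20 enzymes, a count also not made over all tested genes. Knockout library 2 was the lowest for LSS, DHCR7, SREBF2, NPC1, SCAP, MBTPS1, MBTPS2 and MYLIP and, by a narrow margin, for NSDHL. LSS showed the largest gap, 1.25 below the mean of knockout libraries 1 and 3 on the log2 scale, and DHCR7, SREBF2 and NPC1 lay 0.56, 0.48 and 0.43 below. Over the 34 genes this gap had a Spearman correlation of -0.44 with GC content, and over all tested genes one of -0.26, as a description across genes that share these 3 libraries.

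**Figure D5:**
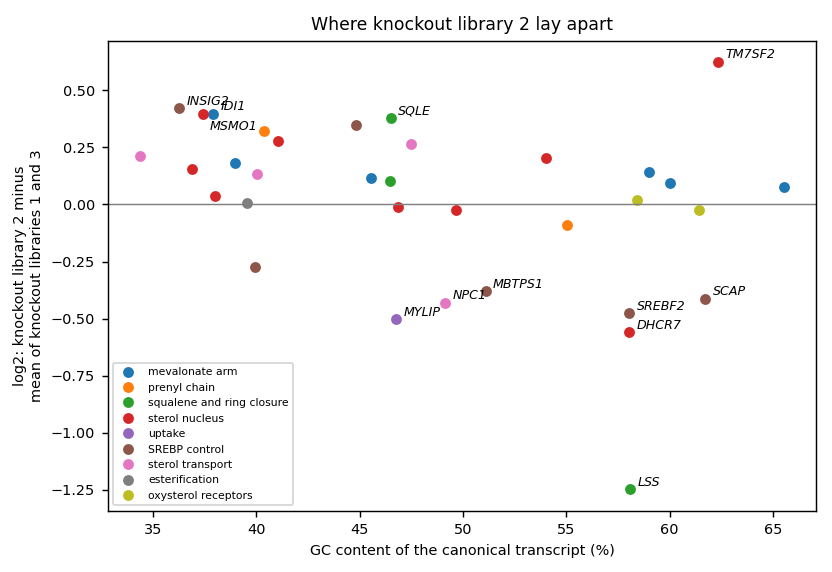
Log2 level in knockout library 2 minus the mean of knockout libraries 1 and 3, against GC content of the canonical transcript in percent, for the 34 genes coloured by role. LSS lies lowest at -1.25, and TM7SF2, with few reads, highest at 0.62.

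Neighbouring steps were read from 6 further lists, of 86 genes in all, 76 of them tested, with 23 higher and 24 lower. These shares are near those over all tested genes, of which 28.9% rose and 30.8% fell (30.8% and 28.4% with the offset), and the counts of each list are to be read against the same shares. Among 14 genes that use isoprenoids 5 rose and 3 fell (median log2 fold change 0.30; 9 and 2 with the offset). DHDDS, for dolichol, rose 2.08-fold and RCE1, a protease of prenylated proteins, 2.51-fold. COQ2, for coenzyme Q, fell by 0.84 on the log2 scale. Of 13 genes for turnover of sterol enzymes and SREBP regulators 5 rose and 1 fell (median 0.21; 7 and 1 with the offset). The ubiquitin-conjugating enzyme gene UBE2G2 rose 1.70-fold, the ERAD gene AUP1 by 0.68 on the log2 scale and TMEM97, known as an SREBP target, 1.58-fold, and the ubiquitin ligase gene RNF145 fell by 0.54. AUP1 lay at 0.12 with the offset (adjusted p = 0.10).

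Of 20 tested genes of sterol transport and efflux 2 rose and 13 fell, compared with 28.9% and 30.8% of all tested genes (median -0.66). With the offset 3 rose and 10 fell, compared with 30.8% and 28.4%. The oxysterol-binding protein genes OSBPL3 and OSBPL6 fell by 1.32 and 1.06 on the log2 scale, and the caveolin gene CAV1 had 233, 235 and 231 CPM in knockout libraries, against 453, 542 and 513 CPM in control libraries. STARD3, a late endosomal sterol carrier, rose 1.80-fold. With the offset OSBPL3 lay at -0.54 and OSBPL6 at -0.07 (adjusted p = 0.71). Of 12 genes for lipoprotein receptors and their uptake 4 rose and 4 fell (median -0.26; 5 and 4 with the offset). The sorting receptor gene SORL1 rose 2.75-fold, while the endocytic adaptor gene DAB2 fell by 1.37 on the log2 scale, the clathrin heavy chain gene CLTC by 0.90 and SCARB2 by 0.53. CLTC and SCARB2 lay at -0.02 and 0.01 with the offset.

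Of 5 tested genes for oxysterols and cholesterol esters 2 rose and 1 fell (median 0.02; 0 and 0 with the offset). HSD3B7 and EBPL rose 1.43-fold and 1.44-fold, and NCEH1, a cholesterol ester hydrolase, fell by 0.70 on the log2 scale but lay at -0.11 with the offset. In the fatty acid arm, which SREBP-1 drives, 5 of 12 rose and 2 fell, compared with 28.9% and 30.8% of all tested genes (median 0.23; 8 and 1 with the offset). The desaturase gene SCD rose 2.14-fold, the fatty acid synthase gene FASN 2.29-fold and MID1IP1, which activates acetyl-CoA carboxylase, by 0.58 on the log2 scale. FADS2, a desaturase gene whose span overlaps that of FADS1, rose 1.96-fold. FASN, like LSS and DHCR7, was lowest of its group in knockout library 2, with 570.5, 279 and 472 CPM in knockout libraries, against 198, 194 and 186 CPM in control libraries.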

How the data were processed

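The deposited values are whole-number read counts per gene symbol in 6 libraries. Per the series' design text, the authors filtered reads, mapped them to GRCh38 with HISAT2 (version 2.0.4, per the submitters' processing notes) and counted genes with HTSeq, with annotation release and strand setting not given in the sources used here.

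Knockout was tested against control with edgeR 4.0.16 (quasi-likelihood, group only, TMM factors, filterByExpr) on R 4.3.3 over 14398 genes, with Benjamini-Hochberg adjustment over all of them. SE is the log2 fold change over the root of F. Alternatives were DESeq2 1.42.0, limma-voom (limma 3.58.1), other scalings and filters, robust dispersions, a replicate block, omission of single libraries, and a lowess (span 0.3) offset for length and GC content of the GENCODE canonical transcript, known for 92.4% of tested genes and all 34 members. Named were all members, PHF8 and, per further list, up to 4 called genes with the smallest p, of which 1 is not reported here. Which genes get per-library values was partly decided with values seen. The members and lists were chosen with earlier results of these data known. Intervals give the uncertainty of the log2 fold change between groups, estimated from the spread between libraries. They do not cover that spread, and single libraries can lie outside them, as for LSS.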

Additional observations from a re-analysis of the deposited data

How the results depend on the processing

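In the 15 alternatives without a length and GC offset, all 22 rises and all 3 falls of the main test were called in the same direction. With the offset 5 genes fell, and with the offset and the replicate block 1 fell (LBR), while 22 rose in both. Of 578 gene values over 17 alternatives, 547 kept their sign. Another 21 turned where the gene was called neither in the main test nor in that alternative (GGPS1, INSIG2, LSS, MBTPS1, MYLIP, NPC2, SC5D and SCAP). The last 10 turned where the gene was called in the main test, in that alternative or in both. These 10 were, with the offset, PMVK (-0.17), SCAP (-0.16), STARD4 (0.50), NPC2 (-0.20), SOAT1 (0.12) and NR1H2 (-0.0036), and, with offset and block, PMVK (-0.17), STARD4 (0.49), SOAT1 (0.12) and NR1H2 (-0.0039). With library totals only the median of the 34 genes was 0.68, since all genes shifted to a median of -0.18. With 2-fold added 1 gene fell and 16 rose. Leaving out each library gave 22 to 23 rises, 3 to 4 falls, medians of 0.82 to 0.91 and 7170 to 9542 called genes, compared with 8593 from all libraries. The replicate numbers are not stated to pair libraries, and deviations of same-numbered libraries had correlations of 0.02, -0.04 and 0.01. With the replicate block alone 22 rose, 3 fell, the median was 0.84 and 8308 genes were called. TM7SF2 and MYLIP, at under 100 reads per library, are limited by depth.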

Other observations

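Knockout library 2 tended to lie lower in long transcripts that are not poor in GC, though not only there. With a boundary of 4000 bases and 45% GC, chosen after the values were seen, 5 of the 34 genes qualified (LSS, SREBF2, NPC1, SCAP and MBTPS1), and all 5 were lower in knockout library 2 than in both other knockout libraries, with a median gap of -0.43 on the log2 scale. The other 29 genes had a median gap of 0.14, with gaps in both directions. Among them DHCR7, at 2627 bases, lay at -0.56 and MYLIP, at 3072 bases, at -0.50. MBTPS2, at 39.9% GC, lay at -0.275, while TM7SF2 lay at 0.62 and INSIG2 at 0.42. Over all tested genes with a known length, 2418 such genes had a median gap of -0.42 and the other 10879 one of 0.06. The gap of LSS, at -1.25, was larger than either median.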
